A study of Mus musculus with 4 samples.

Results

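Replication-dependent histone genes were followed in RNA sequencing of mouse brain at embryonic day 13. The set was every gene whose symbol in the deposited tables began with Hist1h, Hist2h, Hist3h or Hist4h, which gave 52 of 22414 genes. It held 5 genes for the linker histone H1, 9 for H2A, 17 for H2B, 10 for H3 and 11 for H4. Of these, 51 were protein coding and 1, Hist3h2bb-ps, was an H2B pseudogene. The samples were 2 labelled as a conditional knockout of Wt1, called Wt1_CKO, and 2 labelled Wt1fl/fl, with floxed Wt1 alleles, called Wt1_flfl, which the labels also give as wild type. All were on the C57BL/6 background and had no further treatment in the labels. The Cre line, the cells in which it acted and the part of the brain taken are not given in the sources used here, nor is it stated that each library came from its own embryo. The p-values below therefore measure only the spread between these samples, which may be technical. RNA was selected on oligo(dT) beads before random-primed cDNA synthesis, and the quantity measured is the count of reads per gene. In bulk tissue, fewer cells that express a gene and less of its RNA per cell cannot be told apart.

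Cells make most of their core and linker histones while they copy their DNA, from clustered genes whose mRNAs rise at the start of S phase and are destroyed at its end. These mRNAs usually end in a conserved stem-loop in place of a poly(A) tail. The stem-loop is bound by the stem-loop binding protein Slbp, and the U7 small nuclear RNP directs the cut that follows it. Some histone genes also give polyadenylated mRNAs, made when transcription runs past the stem-loop to an ordinary poly(A) signal, and such forms are known from cells that have left the cycle. Oligo(dT) selection favours those forms, so the counts below do not measure the whole pool of histone mRNA. In the embryonic brain the dividing cells are mainly neural progenitors, which lie beside neurons that have stopped dividing.

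The stem-loop is the sequence that sets these transcripts apart, and it was read from the transcripts of GENCODE vM21 on GRCm38. A match was 16 bases with a stem of 6 bases on each side and the letters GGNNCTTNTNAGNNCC (N is any base), searched on the transcript strand. It was present in 37 of the 52 histone genes, and in 61 of 55450 annotated mouse genes (0.110%). Of the 15 genes without a match, 9 had an annotated length under 530 bases, so that the annotation may stop before the site. The lines below give members that recur in the results, with 4 bases before the stem-loop and 5 after it, and capitals mark the stem-loop.
Hist3h2ba, chr11:58949345-58949369, plus strand: caaaGGCTCTTTTCAGAGCCacctt
Hist3h2a, chr11:58955168-58955192, plus strand: caaaGGCTCTTTTCAGAGCCaccca
Hist1h1c, chr13:23739508-23739532, plus strand: aaaaGGCTCTTTTCAGAGCCaccac
Hist1h1e, chr13:23621777-23621801, minus strand: caaaGGCTCTTTTCAGAGCCaccca
Hist1h3e, chr13:23561898-23561922, minus strand: aaacGGCTCTTTTAAGAGCCacctc
Hist1h3g, chr13:23535885-23535909, plus strand: taaaGGCTCTTCTTAGAGCCaccca
Hist1h4h, chr13:23531454-23531478, plus strand: caaaGGCCCTTTTCAGGGCCgccca
Hist1h4i, chr13:22040961-22040985, minus strand: taaaGGCCCTTTTTAGGGCCaccac
The form with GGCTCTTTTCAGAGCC was found in 21 members of the classes H1, H2A, H2B and H3. A form with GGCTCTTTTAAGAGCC was found in 5 members, and Hist1h3g was alone among the members with its loop. The form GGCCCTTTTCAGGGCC was found in 6 of the 10 H4 genes with a match.

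Sequencing depth was similar in the 4 libraries, at 16219310 to 17704698 counts. Wt1_flfl replicate 1 stood apart in some RNAs that usually have no poly(A) tail. Genes annotated as ribosomal RNA summed to 451 and 268 CPM (the count over the listed library total, times 1000000) in Wt1_CKO replicates 1 and 2, against 4582 and 184 CPM in Wt1_flfl replicates 1 and 2. Rn7sk, the RNA of the 7SK particle that holds back transcription elongation, had 23 and 25 counts in Wt1_CKO and 1201 and 14 counts in Wt1_flfl. Rpph1, the RNA subunit of ribonuclease P, had 12 and 9 counts in Wt1_CKO and 346 and 3 counts in Wt1_flfl. These RNAs were 15.2, 62.2 and 46.5 times as high in Wt1_flfl replicate 1 as in the mean of the other 3 libraries. Summed small nucleolar RNAs, which are also not polyadenylated, did not follow, with 232 and 276 counts in Wt1_CKO and 231 and 230 counts in Wt1_flfl. A list of 39 RNAs without a poly(A) tail, which holds these together with Rn7sk and Rpph1, had 10 tested genes. Their median log2 ratio was -0.14 between the replicate 1 libraries and 0.73 between the replicate 2 libraries, so the excess was not general. All 6 brain markers were present, at summed levels of 4220 and 4550 CPM in Wt1_CKO and 4475 and 4577 CPM in Wt1_flfl. The main histone values below are therefore given also without Wt1_flfl replicate 1 or by replicate number.

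Histone transcripts as a whole were lower in Wt1_CKO than in Wt1_flfl in the replicate 1 libraries and higher in the replicate 2 libraries. They summed to 3381 and 3661 counts in Wt1_CKO and to 4877 and 3238 counts in Wt1_flfl, which is 191 and 213 CPM in Wt1_CKO against 301 and 189 CPM in Wt1_flfl. The library labelled Wt1_flfl replicate 1 was the highest, and the other 3 lay close together. The mean was 202 ± 15.8 CPM in Wt1_CKO and 245 ± 79.3 CPM in Wt1_flfl (SD, n = 2 each). The log2 ratio of the group means was -0.28, and the ratios within same-numbered libraries were -0.66 for replicate 1 and 0.18 for replicate 2. Without Wt1_flfl replicate 1 the log2 ratio was 0.10. An exact two-sided permutation test of 2 against 2 libraries cannot give a p below 0.333, so no test of these sums was made.

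The classes differed in how far they departed from this. H1 transcripts summed to 17.8 and 17.5 CPM in Wt1_CKO, against 39.5 and 15.4 CPM in Wt1_flfl. H2A transcripts, the only class whose mean was higher in Wt1_CKO, summed to 18.4 and 21.6 CPM in Wt1_CKO and 21.0 and 11.6 CPM in Wt1_flfl. H2B transcripts, the most abundant class, summed to 138 and 165 CPM in Wt1_CKO and 184 and 155 CPM in Wt1_flfl. The groups overlapped in each of these 3 classes. H3 transcripts summed to 6.78 and 5.36 CPM in Wt1_CKO and 26.9 and 2.85 CPM in Wt1_flfl. H4 transcripts summed to 10.3 and 4.14 CPM in Wt1_CKO and 28.8 and 3.26 CPM in Wt1_flfl. For H3 and H4, as for H1, both Wt1_CKO libraries lay between the 2 Wt1_flfl libraries. The log2 ratio of the group means was -0.63 for H1, 0.29 for H2A, -0.17 for H2B, -1.29 for H3 and -1.15 for H4. Without Wt1_flfl replicate 1 it was 0.20 for H1, 0.78 for H2A, -0.04 for H2B, 1.09 for H3 and 1.14 for H4. The direction thus turned for H1, H3 and H4, and for these classes it rests on that library.

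**Figure D1:**
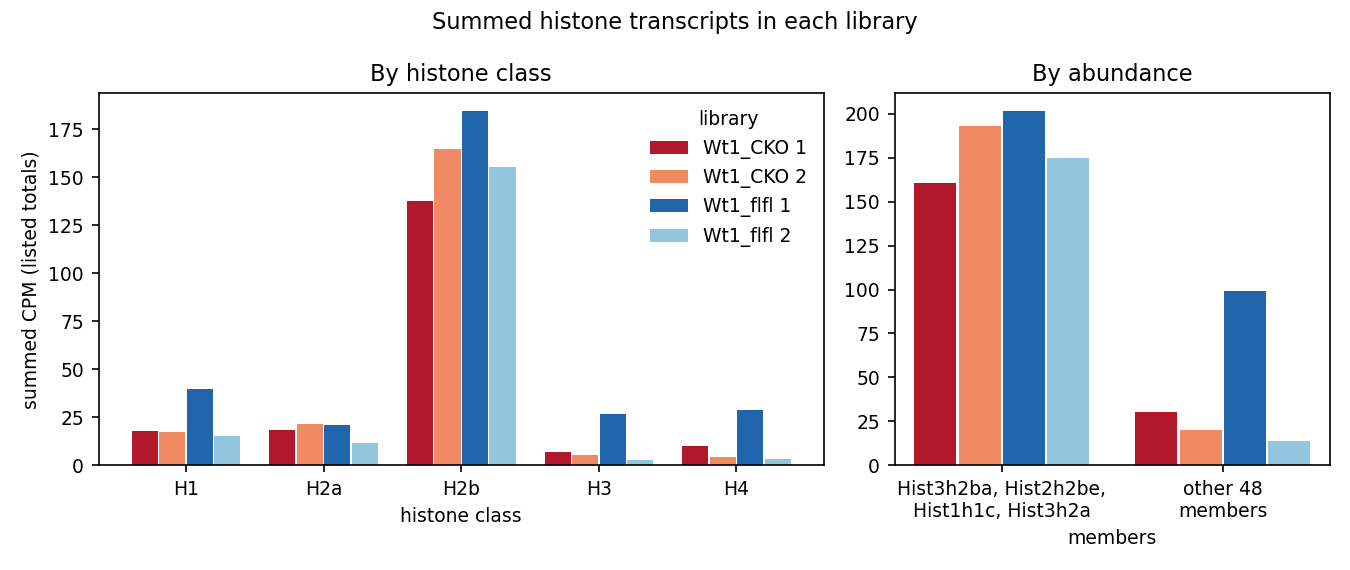
Summed CPM of histone transcripts (vertical axis, on the listed library totals) in each of the 4 libraries, by histone class (left) and for the 4 most abundant members and the other 48 (right). Each bar is 1 library, with no error bar. The 48 less abundant members stand at 99.3 CPM in Wt1_flfl replicate 1, against at most 30.6 CPM in each other library.

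The share of each class in the histone counts moved with the same library. H2B took 72.1% (Wilson 95% interval 70.5 to 73.6) and 77.2% (75.8 to 78.5) of histone counts in Wt1_CKO, against 61.3% (60.0 to 62.7) and 82.4% (81.0 to 83.7) in Wt1_flfl. H3 took 3.55% (2.98 to 4.23) and 2.51% (2.05 to 3.07) in Wt1_CKO, against 8.94% (8.17 to 9.77) and 1.51% (1.15 to 2.00) in Wt1_flfl. H4 took 5.38% (4.67 to 6.20) and 1.94% (1.54 to 2.44) in Wt1_CKO, against 9.58% (8.78 to 10.4) and 1.73% (1.33 to 2.24) in Wt1_flfl. No molecular identifiers are named in the labels, so these intervals cover counting error only. For both H3 and H4 the highest share was in Wt1_flfl replicate 1 and the lowest in Wt1_flfl replicate 2, so that the range within Wt1_flfl held both Wt1_CKO libraries.

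A few genes carried most of the signal. Hist3h2ba, Hist2h2be, Hist1h1c and Hist3h2a together held 81.9% of all histone counts, and Hist3h2ba, an H2B gene of the small Hist3 cluster on chromosome 11, alone held 54.0%. Hist3h2ba had 1752 and 2163 counts in Wt1_CKO and 2149 and 2115 counts in Wt1_flfl. The low value was Wt1_CKO replicate 1, and the groups overlapped. Its level averaged 112 ± 19.2 CPM in Wt1_CKO and 128 ± 6.59 CPM in Wt1_flfl (SD, n = 2 each). The log2 fold change was -0.20 with a standard error of 0.14, and edgeR's quasi-likelihood test gave an adjusted p of 1. Per kilobase of annotated exon, Hist3h2ba averaged 196 CPM over the 4 libraries, against 11.2 for Hist1h1c, 10.7 for Hist2h2be and 7.80 for Hist3h2a. The gene spans chr11:58948920-58949533 on the plus strand, and its annotated transcript runs 169 bases past the stem-loop printed above.

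Hist2h2be encodes H2BE, an H2B variant studied in mouse olfactory neurons. It had 500 and 519 counts in Wt1_CKO and 451 and 438 counts in Wt1_flfl. In CPM both Wt1_CKO libraries, at 28.2 and 30.2, were above both Wt1_flfl libraries, at 27.8 and 25.5, by a margin smaller than the spread within a group. Its log2 fold change was 0.12 with a standard error of 0.14 (95% interval -0.22 to 0.45) and an adjusted p of 1 in edgeR's quasi-likelihood test. No stem-loop was found in its annotated transcript, which ends near a poly(A) signal.

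Hist3h2a, the H2A gene of the Hist3 cluster that also holds Hist3h2ba, had 295 and 347 counts in Wt1_CKO and 306 and 193 counts in Wt1_flfl. The low library was Wt1_flfl replicate 2. The log2 fold change was 0.28 (95% interval -0.37 to 0.93), with -0.20 between the replicate 1 libraries and 0.83 between the replicate 2 libraries. Its annotated transcript runs 1643 bases past the stem-loop and lies within the span of Trim17 on the same strand, so its counts may be shared with that gene. Hist1h1c, a linker histone gene, had 293 and 287 counts in Wt1_CKO and 361 and 251 counts in Wt1_flfl. Both Wt1_CKO values lay between the Wt1_flfl values. Its log2 fold change was -0.16 (95% interval -0.72 to 0.39), and it turned to 0.18 without Wt1_flfl replicate 1. Summed, these 4 genes had 160 and 193 CPM in Wt1_CKO and 201 and 175 CPM in Wt1_flfl, and Wt1_flfl replicate 1 was 1.14 times the mean of the other 3 libraries.

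The other 48 members behaved differently from those 4. They summed to 541 and 345 counts in Wt1_CKO and 1610 and 241 counts in Wt1_flfl, and Wt1_flfl replicate 1 was 4.60 times the mean of the other 3 libraries in CPM. Over all members, 45 of 52 had their highest CPM in Wt1_flfl replicate 1, where 23.2% of all listed genes did. For 13 members the only row was that of the replicate 1 libraries, and they were taken as 0 elsewhere. Some of them, such as Hist1h3f and Hist1h2bq, were listed through reads of Wt1_flfl replicate 1 alone. The 45 thus include members that entered the set through the library in which they were high. In 23 of the 43 members with under 20 counts in each of the other 3 libraries, Wt1_flfl replicate 1 had at least 20. The 43 were picked for low counts in those libraries, and the share over all listed genes was not computed. That count therefore only describes the members. For the 36 less abundant members with over 3 counts in the other 3 libraries, the median fold of Wt1_flfl replicate 1 over their mean was 5.39, with a range of 0.85 to 27.5. Whether these reads and the ribosomal RNA, Rn7sk and Rpph1 reads of that library share a cause was not tested.

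**Figure D2:**
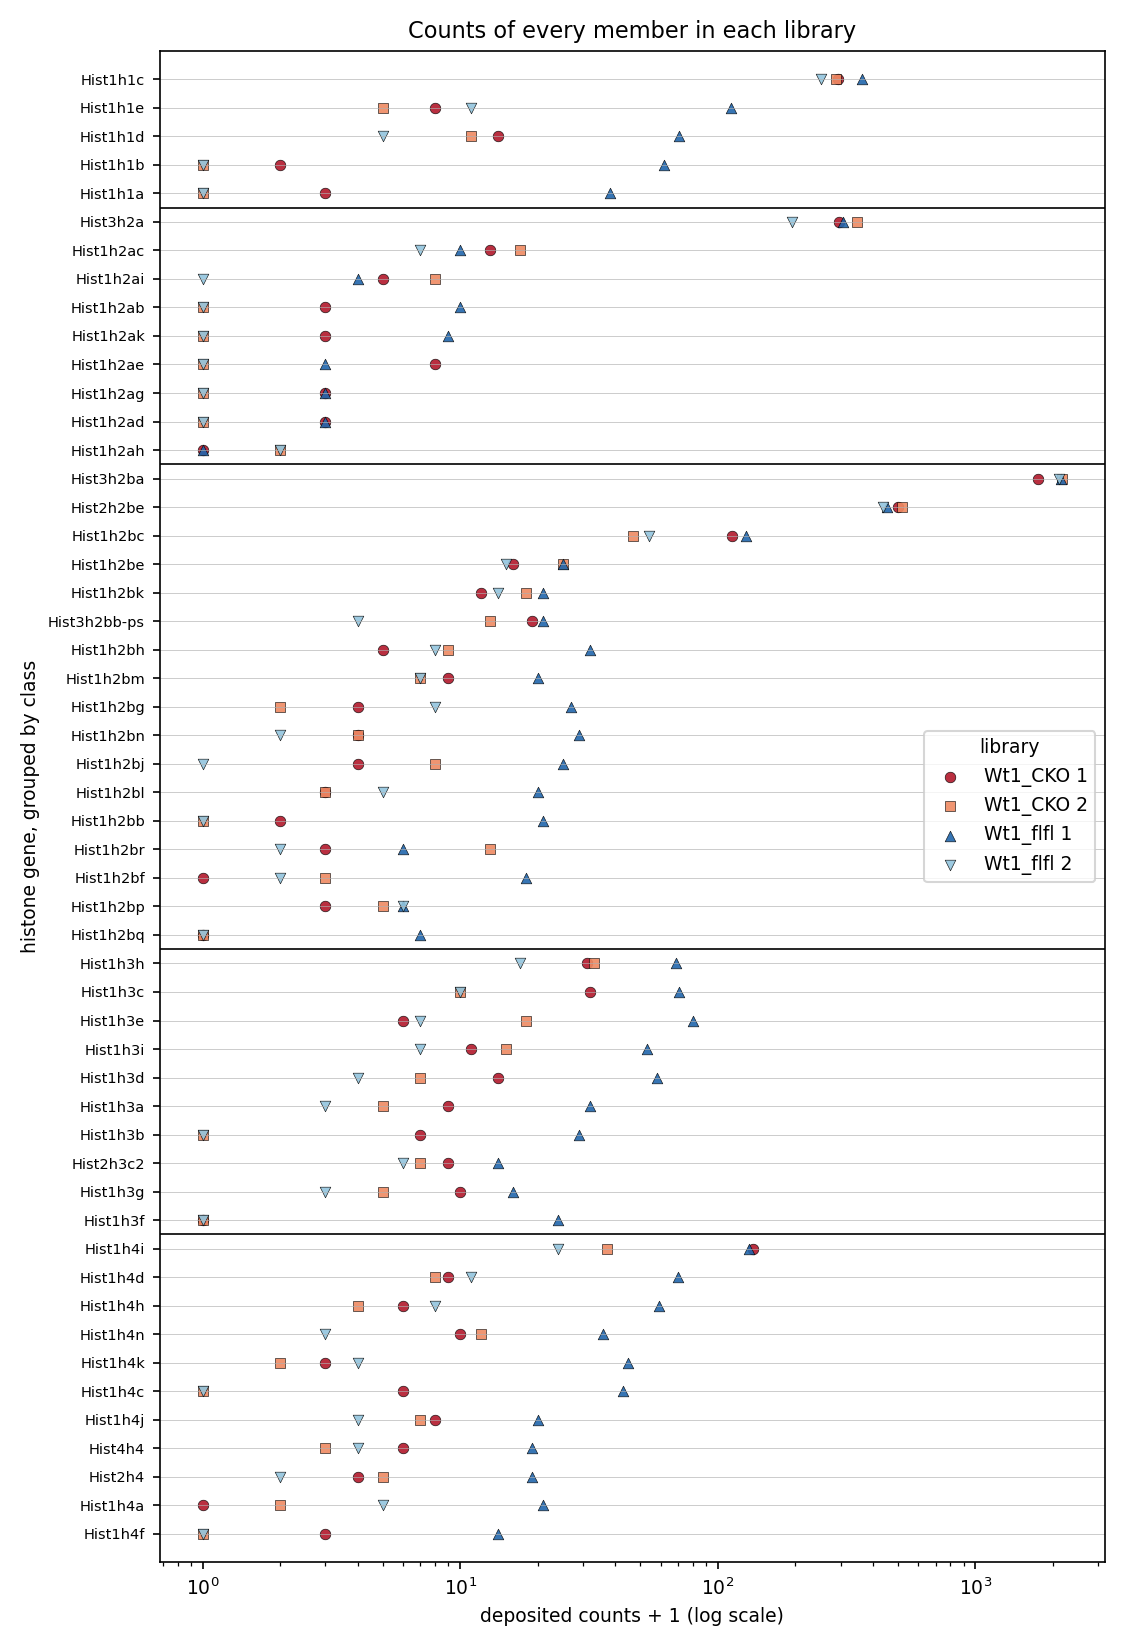
Deposited counts plus 1 (horizontal axis, log scale) of all 52 members (rows, grouped as H1, H2A, H2B, H3 and H4 from top to bottom), with 1 marker per library. A gene with no row in a table is drawn at a count of 0. Wt1_flfl replicate 1 is the rightmost marker for most H1, H3 and H4 genes, while the genes with the most counts have their markers close together.

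Among the linker histones, the 4 less abundant genes had 13 counts or fewer in each library other than Wt1_flfl replicate 1. Hist1h1e had 7 and 4 counts in Wt1_CKO and 112 and 10 counts in Wt1_flfl. Hist1h1d had 13 and 10 counts in Wt1_CKO and 70 and 4 counts in Wt1_flfl. Hist1h1b had 1 count and Hist1h1a 2 counts in Wt1_CKO replicate 1, against 61 and 37 counts in Wt1_flfl replicate 1. Hist1h1b and Hist1h1a had no row in the table of the replicate 2 libraries, which means under 2 counts over both. Summed, these 4 genes had 1.30 and 0.82 CPM in Wt1_CKO and 17.3 and 0.82 CPM in Wt1_flfl with 14 counts in each of the replicate 2 libraries. Reads of Hist1h1e may be shared with Hist1h2be and Gm11398, whose annotated spans overlap it on the same strand.

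H2A transcripts apart from Hist3h2a were few in every library. The other 8 genes summed to 31 and 24 counts in Wt1_CKO and 35 and 7 counts in Wt1_flfl. Hist1h2ac, the highest of them, had 12 and 16 counts in Wt1_CKO and 9 and 6 counts in Wt1_flfl. Its log2 fold change was 0.81 (95% interval -0.54 to 2.16), the most positive of the tested members, and both Wt1_CKO libraries were above both Wt1_flfl libraries in CPM. Only 4 of the 9 H2A genes were highest in Wt1_flfl replicate 1. In the other classes 5 of 5 H1, 15 of 17 H2B, 10 of 10 H3 and 11 of 11 H4 genes were. Of the 4, Hist1h2ad and Hist1h2ag had 2 counts in each replicate 1 library and differed only through the library totals. Hist1h2ab had 9 counts against 2 in Wt1_CKO replicate 1, and Hist1h2ak 8 against 2, so these values lie near the count floor. That difference between classes was not tested. All 9 H2A genes overlap a microRNA gene that GENCODE vM21 annotates on the opposite strand, and no member of another class does. The sources used here do not say whether counting used strand or how it treated reads over 2 genes, and the part of this overlap in the low H2A counts was not tested.

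Among the H2B genes, those after the 2 most abundant ones were Hist1h2bc and Hist1h2be. Hist1h2bc had 113 and 46 counts in Wt1_CKO and 128 and 53 counts in Wt1_flfl, so that the replicate 1 libraries of both genotypes were high and the replicate 2 libraries low. Its log2 fold change was -0.29 (95% interval -1.61 to 1.03). Hist1h2be had 15 and 24 counts in Wt1_CKO and 24 and 14 counts in Wt1_flfl. The opposite library was high in each genotype, and the log2 fold change was -0.05 (95% interval -1.27 to 1.18). Hist1h2bk had 11 and 17 counts in Wt1_CKO and 20 and 13 counts in Wt1_flfl, with a log2 fold change of -0.32. The pseudogene Hist3h2bb-ps had 18 and 12 counts in Wt1_CKO and 20 and 3 counts in Wt1_flfl, with a log2 fold change of 0.28. Hist1h2bb, with 1 count in Wt1_CKO replicate 1 and 20 counts in Wt1_flfl replicate 1, had no row for the replicate 2 libraries.

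All 10 H3 genes were highest in Wt1_flfl replicate 1. Hist1h3h had 30 and 32 counts in Wt1_CKO and 68 and 16 counts in Wt1_flfl. Hist1h3c had 31 and 9 counts in Wt1_CKO and 70 and 9 counts in Wt1_flfl. Hist1h3e had 5 and 17 counts in Wt1_CKO and 79 and 6 counts in Wt1_flfl. In each of these genes the 2 Wt1_flfl libraries were further apart than the 2 Wt1_CKO libraries. Hist1h3i had 10 and 14 counts in Wt1_CKO and 52 and 6 counts in Wt1_flfl, and Hist1h3d had 13 and 6 counts in Wt1_CKO and 57 and 3 counts in Wt1_flfl. Hist1h3e had the most negative log2 fold change of the tested members, -2.04 with a standard error of 1.13. Between the replicate 1 libraries its log2 ratio was -3.66, and between the replicate 2 libraries it was 1.24. Hist1h3b, with 6 counts in Wt1_CKO replicate 1 against 28 in Wt1_flfl replicate 1, and Hist1h3f, with 0 against 23, had no row for the replicate 2 libraries. The only listed H3 gene outside the Hist1 cluster, Hist2h3c2, had 8 and 6 counts in Wt1_CKO and 13 and 5 counts in Wt1_flfl.

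The H4 genes divided into Hist1h4i and the rest. Hist1h4i had 136 and 36 counts in Wt1_CKO and 131 and 23 counts in Wt1_flfl. Like Hist1h2bc, it was high in the replicate 1 libraries of both genotypes, and its log2 fold change was 0.04 (95% interval -1.99 to 2.08). Hist1h4d had 8 and 7 counts in Wt1_CKO and 69 and 10 counts in Wt1_flfl. Hist1h4h had 5 and 3 counts in Wt1_CKO and 58 and 7 counts in Wt1_flfl. Hist1h4n, the only other tested H4 gene, had 9 and 11 counts in Wt1_CKO and 35 and 2 counts in Wt1_flfl, with log2 ratios of -1.88 between the replicate 1 libraries and 1.69 between the replicate 2 libraries. Both H4 genes of other clusters, Hist2h4 and Hist4h4, had 3 and 4 counts and 5 and 2 counts in Wt1_CKO, against 18 and 1 counts and 18 and 3 counts in Wt1_flfl. Hist1h4c, with 5 counts in Wt1_CKO replicate 1 and 42 counts in Wt1_flfl replicate 1, had no row for the replicate 2 libraries.

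No histone gene passed the test for a difference between the genotypes. Of the 52 members, 38 were listed in both tables, 13 only for the replicate 1 libraries and 1, Hist1h2ah, only for the replicate 2 libraries. The filter on low counts left 17 members to test, and the 35 others had 125 and 95 counts in all in Wt1_CKO and 847 and 83 counts in Wt1_flfl. Of the 17, 0 had an adjusted p under 0.05 with edgeR's quasi-likelihood test, where 1 of 15933 tested genes (0.00628%) did, and 0 had an unadjusted p under 0.05, where 1.56% of tested genes did. DESeq2 called 0 of the 38 members listed in both tables and gave 7 of them an unadjusted p under 0.05, all lower in Wt1_CKO, where 0.918% of the 19500 genes it tested had one in either direction. The median log2 fold change of the tested members was -0.29, beside 0.01 for all tested genes. It was -0.75 between the replicate 1 libraries and 0.69 between the replicate 2 libraries.

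**Figure D3:**
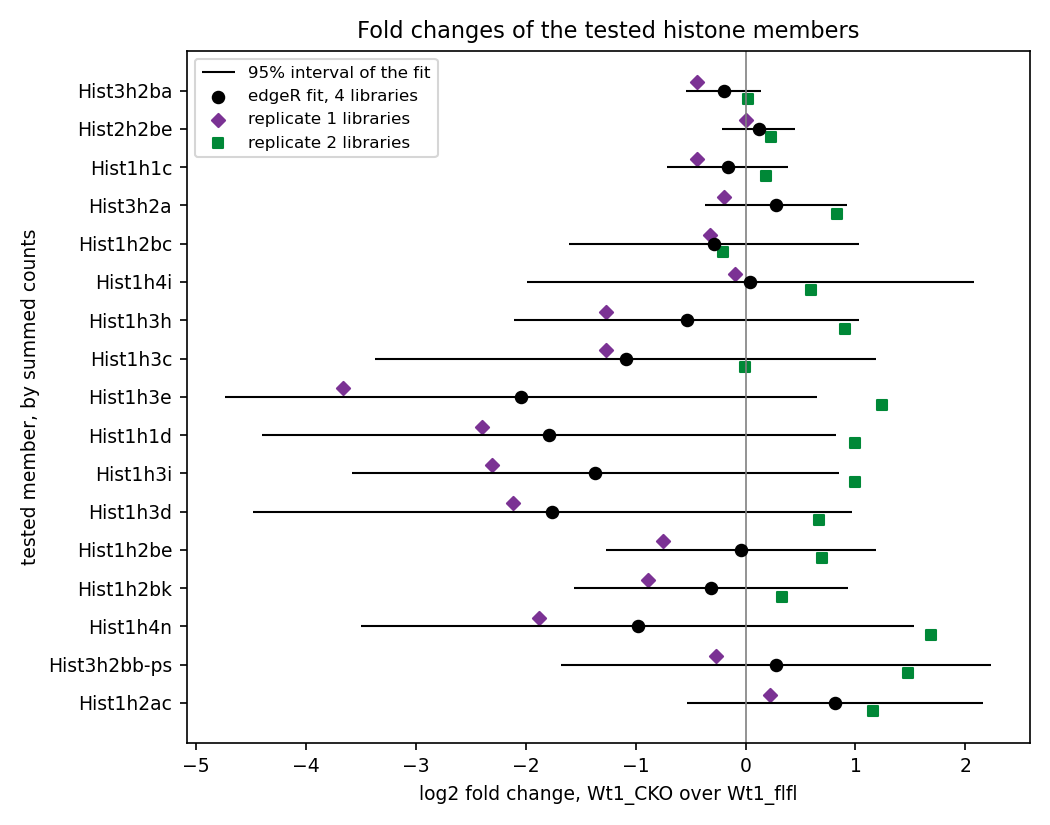
Log2 fold change of Wt1_CKO over Wt1_flfl (horizontal axis) for the 17 tested members (rows, most counts at the top). Black points with lines are the edgeR estimate and its 95% interval over all 4 libraries, diamonds the log2 ratio of the replicate 1 libraries and squares that of the replicate 2 libraries. All intervals include 0, and diamonds and squares lie on opposite sides of 0 for most members.

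Which members were tested, and which were called, changed when 1 library was left out. Without Wt1_flfl replicate 2, so that Wt1_flfl replicate 1 alone stood for its genotype and was assumed to vary like the Wt1_CKO libraries, 36 members were tested and 6 had an adjusted p under 0.05 with edgeR, all lower in Wt1_CKO. Over all 16585 genes tested in that fit, 29 genes (0.175%) passed, 22 of them (0.133%) lower in Wt1_CKO. The 6 members were Hist1h1e, Hist1h1d, Hist1h4h, Hist1h4d, Hist1h4k and Hist1h3e. The filter on low counts was applied again in that fit, so a gene could enter through Wt1_flfl replicate 1 alone. Hist1h1e, Hist1h4h, Hist1h4d and Hist1h4k were not among the 17 members tested with all 4 libraries. Each had 8 counts or fewer in both Wt1_CKO libraries and at least 44 in Wt1_flfl replicate 1. Their calls cannot be separated from that selection. Hist1h1e had a log2 fold change of -4.44 in that fit. Without Wt1_flfl replicate 1, 20 members were tested and 0 passed with edgeR, where 0.439% of 16645 tested genes did, and 0.372% passed with a lower value in Wt1_CKO. The median log2 fold change of those 20 members was 0.88. The direction of most less abundant members therefore depends on which Wt1_flfl library is used.

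Counted over the libraries without a test, 3 members had both Wt1_CKO libraries above both Wt1_flfl libraries in CPM, which are Hist2h2be, Hist1h2ac and Hist1h2ai, where 13.7% of listed genes did. The reverse held for 8 members, Hist1h1e, Hist1h4d, Hist1h4h, Hist1h4k, Hist1h2bg, Hist1h2bl, Hist1h4a and Hist1h2bp, where 11.1% of listed genes did. In these 8 the gap between the groups was set by Wt1_flfl replicate 2, which had 10 counts or fewer in each of them. In the authors' deposited table of the replicate 1 libraries, 30 of 51 listed members were marked as lower in Wt1_CKO (1.53% of all its genes were) and 0 as higher (1.67%). In the authors' deposited table of the replicate 2 libraries, 0 of 39 were marked as lower (1.93% of all its genes were) and 4 as higher (1.27%). Those 4 were Hist1h4n, Hist1h2bj, Hist1h2br and Hist1h2ai, with 2, 0, 1 and 0 counts in Wt1_flfl replicate 2. In the authors' deposited tables Hist1h4n and Hist1h2bj were marked in opposite directions, with log2 ratios of -2.09 and -3.13 in the first table and 2.46 and 3.81 in the second.

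**Figure D4:**
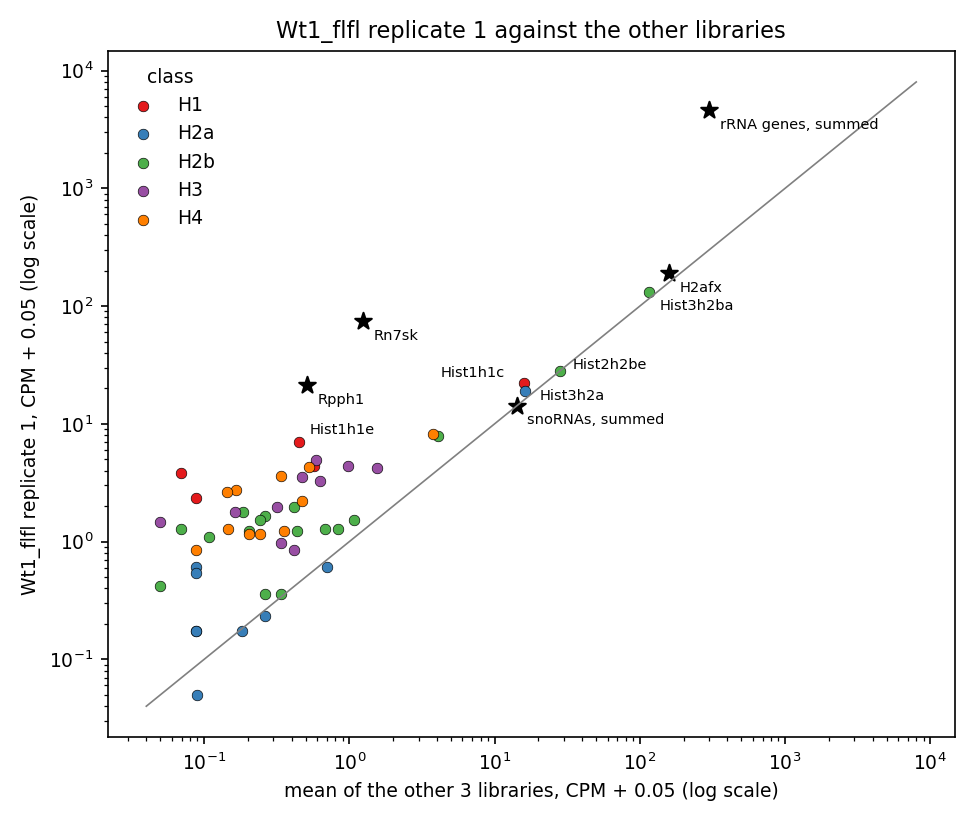
CPM plus 0.05 in Wt1_flfl replicate 1 (vertical axis) against the mean of the other 3 libraries (horizontal axis), both on log scales, with 1 coloured point per member. Stars mark ribosomal RNA genes summed, Rn7sk, Rpph1, small nucleolar RNAs summed and the histone variant gene H2afx, and the line marks equal values. Hist3h2ba, Hist2h2be and H2afx lie near the line, while most less abundant members lie above it with Rn7sk and Rpph1.

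The members were also divided by their annotated 3′ end, a split that overlaps the one by abundance. A poly(A) signal (AATAAA or ATTAAA in the last 50 bases of an annotated transcript) was present in 15 of the 52 members, against 43.9% of all annotated genes. These 15 summed to 171 and 199 CPM in Wt1_CKO and 220 and 178 CPM in Wt1_flfl, and Wt1_flfl replicate 1 was 1.21 times the mean of the other 3 libraries. The 37 members without the signal summed to 20.3 and 14.7 CPM in Wt1_CKO and 80.4 and 10.5 CPM in Wt1_flfl, and Wt1_flfl replicate 1 was 5.30 times that mean. Both Wt1_CKO libraries lay between the Wt1_flfl libraries in the second group, and Wt1_CKO replicate 1 was below both in the first. The 4 most abundant members all have the signal. The other 11 members with it summed to 10.3 and 5.36 CPM in Wt1_CKO and 18.9 and 3.55 CPM in Wt1_flfl, and Wt1_flfl replicate 1 was 2.95 times the mean of the other 3 libraries. Of the 15 members with the signal, 11 were highest in Wt1_flfl replicate 1. The difference between members with and without the signal was not tested. H2afx, a replacement H2A gene known to give both a stem-loop mRNA and a polyadenylated one, had 140 and 172 CPM in Wt1_CKO and 192 and 166 CPM in Wt1_flfl, 1.20 times as high in Wt1_flfl replicate 1 as in the other 3.

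By position, 45 members lie in the Hist1 cluster on chromosome 13, 3 in Hist2, 3 in Hist3 and 1 in Hist4. The positions in the deposited tables equal those of GENCODE vM21 on GRCm38 for all 52. The Hist1 genes fell into 3 groups, with 14 genes in chr13:21715763-21837530, 5 in chr13:22035164-22043676 and 26 in chr13:23531050-23764406. The first group summed to 82 and 98 counts in Wt1_CKO and 372 and 47 counts in Wt1_flfl. The second, which holds Hist1h4i, summed to 152 and 61 counts in Wt1_CKO and 177 and 37 counts in Wt1_flfl. The third summed to 566 and 449 counts in Wt1_CKO and 1353 and 396 counts in Wt1_flfl. In CPM, Wt1_flfl replicate 1 was 5.26, 2.29 and 3.08 times the mean of the other 3 libraries in the 3 groups. The 7 members outside Hist1 summed to 146 and 178 CPM in Wt1_CKO and 183 and 161 CPM in Wt1_flfl, and there the ratio was 1.14.

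Near-identical copies limit what single members can show. GENCODE vM21 has 70 genes of this naming pattern, and 18 had no row in either table. The share of 50-base windows of a gene's transcripts that occur in no other gene had a median of 53.6% in the members and 8.56% in those 18, of which 5 had none. How reads that match several genes were counted is not given in the sources used here, and the part of this in which genes had rows was not tested. Values of members with little sequence of their own, such as Hist1h3h at 6.08%, Hist1h3i at 12.4% and Hist1h4n at 14.4%, are uncertain for that reason. By contrast the figures were 77.9% for Hist3h2ba, 100% for Hist2h2be and 91.5% for Hist1h1c. Among the classes the median was highest in H1, at 97.7%, and lowest in H2A, at 42.0%. A window shared with a gene annotated over the same bases, on either strand, also counted as not unique. All 9 H2A members have such a microRNA gene, so their values may be low through this overlap as well as through copies. The 2 were not separated.

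**Figure D5:**
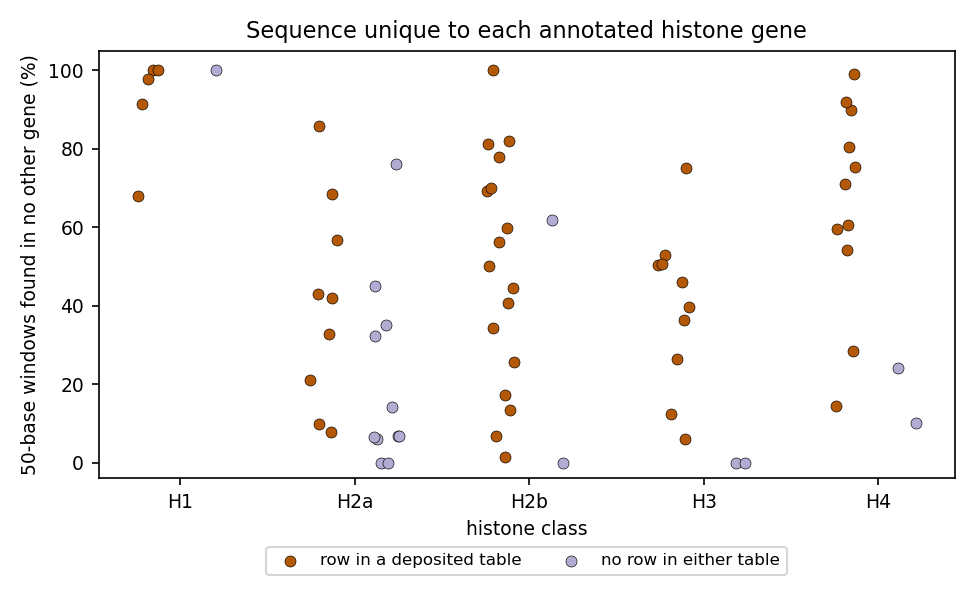
Percent of 50-base transcript windows found in no other annotated gene (vertical axis) for each annotated histone gene by class (horizontal axis, spread sideways for legibility). Orange points are the 52 genes with a row in a deposited table and lilac points the 18 without. Listed H1 genes lie at 68.0% or more, while 5 genes without a row lie at 0%.

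Upstream sequence was available from RefSeq on GRCm38.p6 for 46 members, over 250 bases before the start. For each member the entry nearest the listed start was searched, while each of the 27025 RefSeq genes counted if any of its entries matched. A TATA box (TATAAA, both strands) was present in 50% of the members, against 14.3% of all RefSeq genes over that length. A CCAAT box (CCAAT, both strands) was present in 82.6%, against 37.5%. The octamer ATTTGCAT (both strands), a motif of Oct family factors long known from H2B promoters, was present in 19.6%, against 1.81%. Matches of different motifs may overlap at their ends. By class, CCAAT was found in all 5 H1, 9 H2A and 14 H2B promoters, in 7 of 8 H3 promoters and in 3 of 10 H4 promoters. The octamer was found in 5 H2A and 4 H2B promoters and in no other class. The windows of an H2A and an H2B gene that face away from each other can overlap. The octamer counted for Hist1h2ae and for Hist1h2bg, for example, is the same stretch, so these matches are not all separate. A match is a description of letters and not a site of binding. The lines below give the 130 bases before the start for the most abundant member, for an H2A gene with all 3 motifs and for a linker histone gene that was high in Wt1_flfl replicate 1, with motif matches in capitals.
Hist3h2ba, chr11:58948781-58948910, plus strand: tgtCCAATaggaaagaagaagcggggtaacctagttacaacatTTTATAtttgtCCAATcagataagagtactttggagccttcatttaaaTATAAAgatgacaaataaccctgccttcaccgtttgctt
Hist1h2ac, chr13:23683960-23684089, minus strand: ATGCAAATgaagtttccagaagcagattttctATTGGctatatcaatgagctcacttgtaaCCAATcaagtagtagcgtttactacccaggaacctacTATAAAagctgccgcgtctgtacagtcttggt
Hist1h1e, chr13:23622559-23622688, minus strand: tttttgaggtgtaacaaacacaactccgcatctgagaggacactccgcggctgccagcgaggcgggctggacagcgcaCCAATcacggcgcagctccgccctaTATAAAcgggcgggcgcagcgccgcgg

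Genes that share a promoter region had different counts. Among the members there were 8 pairs of an H2A and an H2B gene that face away from each other, with 173 to 302 bases between their starts. Hist1h2ac and Hist1h2bc, whose starts are 251 bases apart, had 12 and 16 counts against 113 and 46 counts in Wt1_CKO, and 9 and 6 counts against 128 and 53 counts in Wt1_flfl. Hist1h2ak and Hist1h2bn had 2 and 0 counts against 3 and 3 counts in Wt1_CKO, and 8 and 0 counts against 28 and 1 counts in Wt1_flfl. In 7 of the pairs the H2B partner had more counts in Wt1_flfl replicate 1 than the H2A partner, the exception being Hist3h2a with the pseudogene Hist3h2bb-ps.

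Genes that make, process and use histone transcripts showed no called change. Of 25 genes for histone gene transcription and histone mRNA processing and decay, all were tested and 0 passed with edgeR, at a median log2 fold change of 0.04. Slbp had 86.1 and 90.9 CPM in Wt1_CKO and 86.7 and 79.3 CPM in Wt1_flfl. Npat, which activates histone gene transcription at the start of S phase, had 44.3 and 29.9 CPM in Wt1_CKO and 33.4 and 30.2 CPM in Wt1_flfl. Casp8ap2, a partner of Npat in histone locus bodies, was the only gene of the list with an unadjusted p under 0.05, at 67.6 and 56.6 CPM in Wt1_CKO and 49.9 and 47.4 CPM in Wt1_flfl. Both its Wt1_CKO libraries were above both Wt1_flfl libraries, at a log2 fold change of 0.34 and an adjusted p of 1 with edgeR.

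Genes of DNA replication and S phase, with which histone synthesis is coupled, were all 30 tested and 0 passed. Their median log2 fold change was 0.12, with 0.05 between the replicate 1 libraries and 0.20 between the replicate 2 libraries. Of the 30, 16 were higher in Wt1_CKO in both comparisons of same-numbered libraries and 0 were lower in both, where 4298 and 4119 of 15933 tested genes were. Pola1, the catalytic subunit of the DNA polymerase that starts new strands, had 45.3 and 41.5 CPM in Wt1_CKO and 34.7 and 32.4 CPM in Wt1_flfl. Pcna, the sliding clamp of replication, had 385 and 328 CPM in Wt1_CKO and 379 and 265 CPM in Wt1_flfl. Totals of the 30 genes were 3670 and 3912 CPM for Wt1_CKO, and 3536 and 3372 CPM for Wt1_flfl. The library with the excess of less abundant histone transcripts, Wt1_flfl replicate 1, was thus not the highest here. Oligo(dT) selection favours only some forms of histone mRNA, and the part of S phase in that excess was not tested.

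Histone chaperones and chromatin assembly factors gave 0 called of 18, with a median of 0.09 (0.031 between the replicate 1 libraries and 0.10 between the replicate 2 libraries) and 10 genes higher in Wt1_CKO in both comparisons. Nasp, a chaperone of H3 and H4, had 559 and 529 CPM in Wt1_CKO and 494 and 461 CPM in Wt1_flfl. Replication-independent histone variants, most of whose mRNAs are polyadenylated, gave 0 called of 11 and a median of -0.06, at -0.16 between the replicate 1 libraries and 0.05 between the replicate 2 libraries. H2afz had 574 and 789 CPM in Wt1_CKO and 606 and 589 CPM in Wt1_flfl, and H3f3b had 1503 and 1435 CPM in Wt1_CKO and 1624 and 1376 CPM in Wt1_flfl. H3f3a had 270 and 343 CPM in Wt1_CKO and 283 and 276 CPM in Wt1_flfl, and H1f0 had 614 and 827 CPM in Wt1_CKO and 612 and 693 CPM in Wt1_flfl. The groups overlapped in each of these 4 genes.

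Markers of the cell types in the tissue gave 0 called in each list. Neural progenitor markers summed to 2569 and 2962 CPM in Wt1_CKO and 2541 and 2795 CPM in Wt1_flfl, and markers of postmitotic neurons to 5857 and 4972 CPM in Wt1_CKO and 5953 and 5261 CPM in Wt1_flfl. Erythroid markers summed to 920 and 1816 CPM in Wt1_CKO and 963 and 1856 CPM in Wt1_flfl, and so were higher in the replicate 2 libraries of both genotypes. Endothelial markers summed to 101 and 106 CPM in Wt1_CKO and 104 and 120 CPM in Wt1_flfl. Markers of meninges and mesenchyme summed to 33.3 and 30.4 CPM in Wt1_CKO and 32.7 and 58.8 CPM in Wt1_flfl, high in Wt1_flfl replicate 2. Among them the collagen gene Col1a1 had 5.31 and 4.72 CPM in Wt1_CKO and 8.82 and 12.8 CPM in Wt1_flfl. None of these lists was highest in Wt1_flfl replicate 1 apart from the neuron markers, and the part of cell composition in the histone values was not tested.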

How the data were processed

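RNA from 4 brain samples was selected on oligo(dT) beads, per the labels' protocols. The submitters' processing notes name TopHat2 2.0.12, Bowtie2 2.2.3, HTSeq 0.6.0 and the build mm9, although the deposited positions of the histone genes are those of GRCm38. The authors deposited whole-number counts per gene in 2 tables, each with a Wt1_CKO and a Wt1_flfl library of the same number, and every listed gene has at least 2 counts over both. The CPM, fold ratio, log2 ratio and p-values in the deposited tables set 1 library against the other, and the test behind the p-values is not stated. The members and gene lists were chosen with earlier results of these data known.

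The test was edgeR 4.0.16 (R 4.3.3) on counts of genes present in both tables, with filterByExpr at a minimum count of 10, TMM, a quasi-likelihood F test without further terms, and Benjamini-Hochberg adjustment at 0.05. Standard errors and 95% intervals come from that F statistic. CPM values use listed totals without TMM, and a gene with no row counts as 0 in sums. Log2 ratios of single genes between same-numbered libraries use TMM and a prior count of 2. Named members were those tested, the most abundant by class and cluster, and those with at least 20 counts in 1 table and no row in the other. Further members in lists of calls were chosen after their values were seen. Context genes were the 1 or 2 per list with the smallest p and a few chosen by role.

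In simulated counts of 15635 genes the test recovered 44 of 84 genes with a log2 fold of 1 (52.4%) and 98 of 111 with 2 (88.3%), and called 5 unchanged genes. The changed genes were drawn from all tested genes, and no simulated library stood apart. These shares therefore need not hold for histone genes with few counts. Alternatives were a replicate block, each library left out in turn, scaling by DESeq2 size factors, DESeq2 1.42.0, no filter or a minimum count of 30, genes of either table, and totals without haemoglobin, mitochondrial and non-polyadenylated RNA genes. Wt1 is not reported here.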

Additional observations from a re-analysis of the deposited data

How the results depend on the processing

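The call of 0 histone genes held under the 7 alternatives that kept all 4 libraries, and no followed gene turned direction under them. Genes called over the whole table were 1 in the fit as reported, 5 with DESeq2, and 42 with the replicate number as a block. The block called 0 histone genes, and called Rn7sk, Rpph1 and Col1a1 (adjusted p = 0.0425 for Col1a1, edgeR), lower in Wt1_CKO. Between the replicate 2 libraries, however, Rn7sk and Rpph1 were higher in Wt1_CKO, at log2 ratios of CPM of 0.84 and 1.59. The labels do not say that the numbers pair the samples, and the deviations of same-numbered samples from their group means correlated at 0.28 over 15933 genes, which is a hint from the data and not the design.

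Leaving out 1 library changed more, and the filter on low counts was applied anew each time. Genes called ranged from 3 to 73 and histone genes called from 0 to 6. The median log2 fold change of tested histone genes ranged from -2.08 to 0.88. Medians of the marker lists ranged from -0.11 to 0.051 for neural progenitors, -0.17 to 0.043 for neurons, -0.90 to 0.53 for erythroid cells and -0.22 to 0.0090 for endothelial cells. The log2 ratio of summed CPM ranged from -2.15 to 1.09 for H3 and from -2.0 to 1.14 for H4. Without Hist1h1c, the ratio for H1 was -3.10, and for those 4 genes it was 0.38 without Wt1_flfl replicate 1.

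Direction turned in 22 of 35 followed genes when a library was left out. Log2 fold changes ranged from -0.44 to 0.18 for Hist1h1c, -2.72 to 1.46 for Hist1h1d, -0.053 to 0.70 for Hist3h2a, -1.05 to 0.54 for Hist1h2bc, -0.45 to 0.45 for Hist1h2be, -0.69 to 0.078 for Hist1h2bk and -0.54 to 2.24 for Hist3h2bb-ps. They ranged from -1.25 to 0.92 for Hist1h3h, -2.20 to 1.10 for Hist1h3c, -3.19 to 0.84 for Hist1h3e, -2.23 to 0.96 for Hist1h3i, -2.70 to 1.59 for Hist1h3d, -1.18 to 1.85 for Hist1h4i and -1.92 to 2.22 for Hist1h4n. Outside the set they ranged from -5.76 to 0.74 for Rn7sk, -5.15 to 1.73 for Rpph1, -0.10 to 0.46 for Npat, -0.11 to 0.42 for Pcna, -0.10 to 0.33 for H1f0, -0.072 to 0.39 for H2afz, -0.065 to 0.28 for H3f3a and -0.17 to 0.085 for H3f3b. The cause was not tested. Depth limits the 35 untested members, where 3 counts are 0.169 to 0.185 CPM.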
